A study of Mus musculus with 2 samples.

Results

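The 54 genes described here encode core and regulatory proteins of pre-mRNA splicing, and were taken by name from a table of 16463 genes: every gene whose symbol starts with Srsf (10 genes), Hnrnp (20), Sf3a (3), Sf3b (6), U2af (3) or Snrp (12). Polyadenylated RNA was sequenced from unstimulated bone marrow-derived macrophages. These cells arise when marrow is cultured with colony-stimulating factor, given here as L929 cell supernatant at 10%, beside 10% serum, over 5 days. Both mouse lines were labelled C57BL/6J and carried Lyz2-Cre, which recombines floxed DNA in myeloid cells. The control line (WT) had Lyz2-Cre alone. The other line (TKO) lacked the clusters mir-106a~363 (-/-) and mir-106b~25 (-/-) and was flox/flox at the third, mir-17~92, which Lyz2-Cre can remove only in cells that express it. Each genotype was represented by 1 library, so no difference could be checked against replicates, and the intervals given measure counting error alone. The number of mice behind each library is not stated in the labels.

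Splicing removes introns in 2 chemical steps carried out by the spliceosome, a machine built from small nuclear ribonucleoproteins (snRNPs). The Sm proteins form a ring around the U1, U2, U4 and U5 small nuclear RNAs, the SF3A and SF3B complexes belong to the U2 snRNP and hold it at the branch point, and the U2AF heterodimer reads the polypyrimidine tract and the AG of the 3′ splice site. SR proteins bind mainly exonic enhancers through RNA recognition motifs and recruit the machinery through arginine-serine repeats, while hnRNP proteins coat nascent transcripts and often favour exon skipping. Many SR and hnRNP genes limit their own output through exons that send the transcript to nonsense-mediated decay, and in macrophages splicing choices shape inflammatory transcripts. Counts per gene, as deposited, do not separate such isoforms.

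The libraries held 10877917 (WT) and 10656465 (TKO) estimated counts. Of the 10 macrophage markers all passed the count minimum of 20 in 1 library, and their summed counts were 146122 in WT and 145031 in TKO, with 5 markers higher and 5 lower, each with an interval that left out 0, from Adgre1 at a log2 ratio of -0.43 to Fcgr1 at 0.68. All 8 fibroblast and stroma markers were lower in TKO (summed counts 7667 and 2152). Of 5 dendritic cell markers, 4 passed the minimum and were higher (summed counts of these 4, 537 and 1306). Itgax (342 and 843) and Cd24a (177 and 414) gave most of that sum. Zbtb46, which was under the minimum, had 5 counts in WT and 3 in TKO. The 5 proliferation markers lay below 0, with a median log2 ratio of -0.29 and summed counts of 26101 and 18901. The interval of Mcm2 took in 0 (-0.27 to 0.14). With the trend of the ratio on gene length removed, as described below, the median was -0.14 and 4 intervals lay below 0. Mki67, with 10098 bases and the most counts of the 5, went from -0.49 to -0.082. Of 4 neutrophil markers found in the table, S100a8 and Mmp9 passed the minimum (9 and 21 counts, and 52 and 19). Of the lymphoid markers Cd79b (27 and 20 counts) and Cd4 (64 and 25) did, and Ms4a1, like the neutrophil marker Elane, had 0 counts in WT and 3 in TKO. The microRNAs themselves are not measured by these gene counts. The host transcript Mir17hg had 8 counts in WT and 42 in TKO and Mcm7, host of mir-106b~25, had 1228 and 1083; neither count separates deleted from retained bases, so they do not check the genotype. The part of these differences in the values of the splicing genes was not tested. Counts are from bulk RNA, where fewer cells of a type and less RNA per cell cannot be told apart.

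Splicing factor transcripts were at closely similar levels in both libraries. All 54 genes passed the count minimum. Their log2 ratio of TKO over WT, from counts scaled by TMM, a trimmed-mean scaling between libraries, ran from -0.22 (Snrpn) to 0.72 (Snrpg) with a median of 0.050, against a median of 0.0042 over the 11525 genes past the minimum. It lay within 0.25 of 0 for 45 of the 54 genes (83.3%), compared with 57.9% of all genes past the minimum and 63.0% of those with at least 100 counts. The splicing genes are also counted more deeply, with a median of 1361 counts in WT against 345 over all genes, which narrows the counting error of their ratios.

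No splicing gene differed by 2-fold. Calls by size needed a ratio past a fold threshold together with a 95% counting interval that left out 0. At 2-fold 0 of 54 were higher and 0 lower, where 2.43% and 2.3% of all genes were called. Shares this small leave few calls among 54 genes. At 1.5-fold 1 gene, Snrpg, was called higher and none lower, against 5.13% and 5.54% of all genes. Of the 54 genes, 53 have at least 100 counts. Among the 9257 such genes, 164 were called higher and 95 lower at 2-fold, and 377 and 366 at 1.5-fold. At a lower threshold, a log2 ratio of 0.32, 3 were higher (Snrpg, Snrpe and Snrpd2) and 0 lower, against 11.5% and 12.9%. Asking only that the interval leave out 0, whatever the size, 19 genes (35.2%) lay above and 4 (7.41%) below, where 21.8% and 22.7% of all genes did. By the FDR in the authors' deposited table, at most 0.05, 10 of the 54 (18.5%) were listed as higher and 7 (13.0%) as lower. Over all 16463 genes, with those under the count minimum included, the shares were 10.8% and 15.6%. Among the 9257 genes with at least 100 counts, 1579 were listed as higher and 2292 as lower. The test behind the FDR is not named, and with 1 library each it compares the libraries and not the genotypes.

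**Figure D1:**
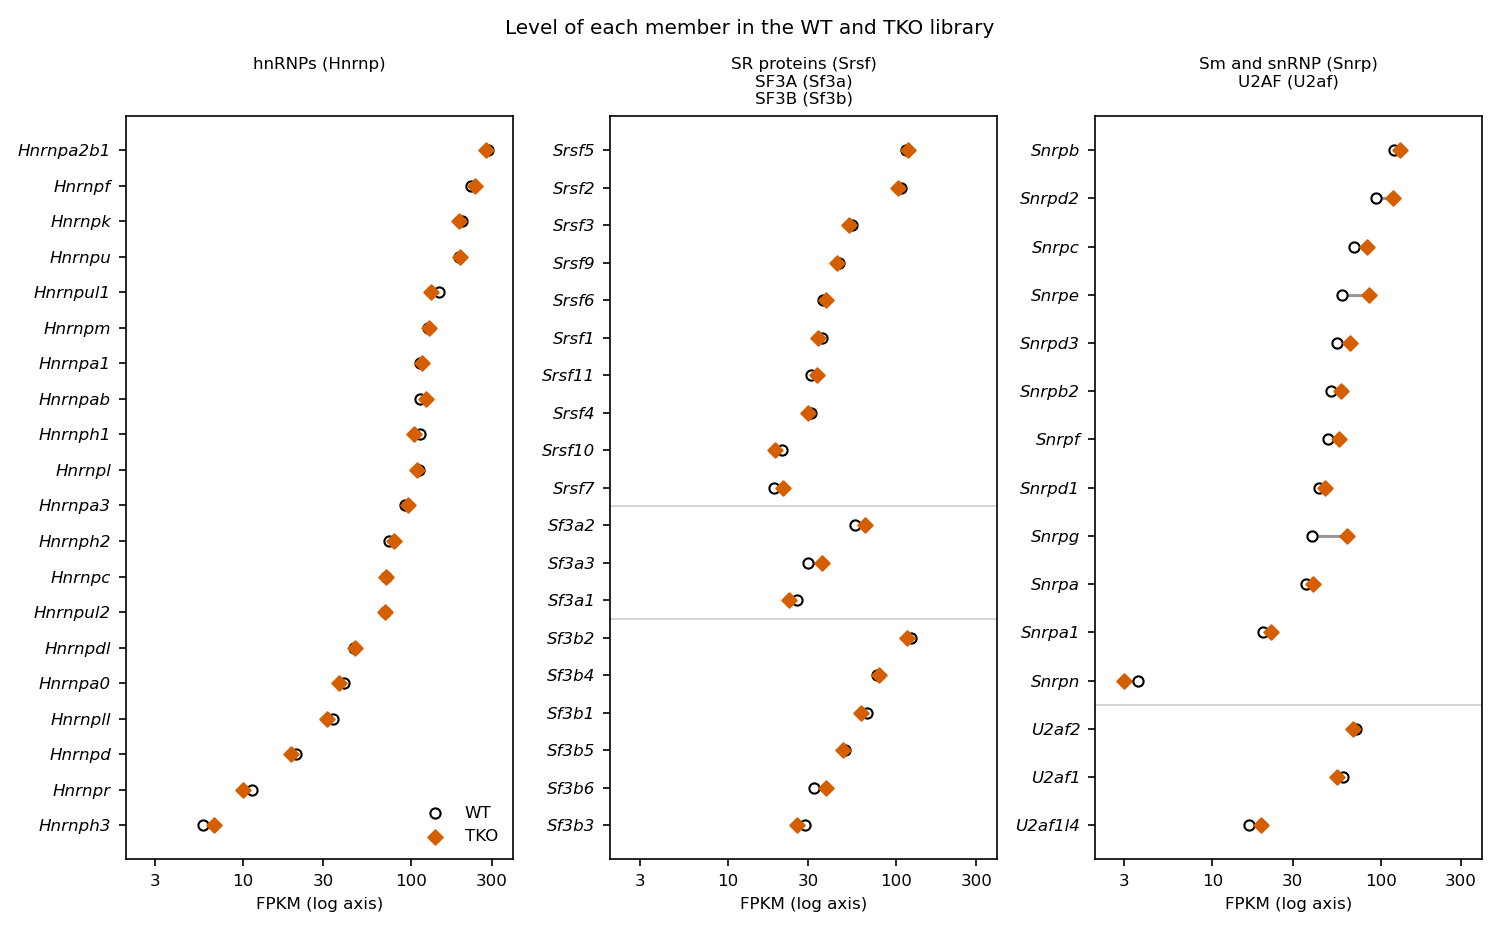
Level of each splicing gene in FPKM (log axis), with open circles for the WT library and diamonds for the TKO library, grouped by family and ordered by WT level. Most pairs of symbols overlap. The widest gaps are those of Snrpg (39.3 and 63.1 FPKM) and Snrpe (59.1 and 85.4 FPKM).

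The order of levels within the group was nearly the same in both libraries. FPKM, which divides counts by gene length and library size, is used here to compare levels between genes. It ran from 3.62 (Snrpn) to 285 (Hnrnpa2b1) in WT and from 2.97 to 276 in TKO for the same 2 genes. The median was 54.9 in WT and 59.9 in TKO, against 11.2 and 10.9 over all genes past the count minimum. Across the 54 genes, log2 FPKM in WT and TKO had a Pearson correlation of 0.990, a description over genes that share both libraries. Counting from the most abundant, 43 genes kept their rank to within 3 places, and the longest move was that of Snrpg, from rank 36 in WT to rank 26 in TKO. Snrpe went from rank 25 to 17 and Snrpd2 from 15 to 9, while U2af1 went from 24 to 30.

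Together the 54 genes took the same share of both libraries. Their summed counts were 100461 in WT and 98284 in TKO, which is 0.924% (95% exact interval 0.918 to 0.929) and 0.922% (0.917 to 0.928) of all counts. The hnRNP genes made up most of it, with 63942 and 62210 counts.

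Most genes of the Sm and other snRNP proteins were higher in TKO by a small amount. Of the 12 Snrp genes 11 had a ratio above 0, with a median log2 ratio of 0.24 (1.18-fold), and for 9 the interval lay wholly above 0. Over all genes past the minimum 5832 of 11525 had a ratio above 0, and 661 of the 796 under 1000 bases did. The interval lay wholly above 0 for 21.8% of all genes and 47.4% of those under 1000 bases. The Snrp family summed to 5685 counts in WT and 6474 in TKO, a log2 ratio of 0.25 (0.20 to 0.30). The 42 genes of the other families had a median of 0.0093 and ran from -0.15 to 0.31.

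The 7 genes of the Sm ring, a subset named after the values were seen, were all above 0, with a median log2 ratio of 0.29. All but Snrpb are under 1000 bases, a length at which most genes lay above 0. Snrpg (Entrez 68011, chromosome 6, 86371540 to 86378902, GRCm38.p6), which encodes the smallest Sm protein, was counted 155 times in WT and 244 times in TKO, 1.65-fold higher at a log2 ratio of 0.72 (0.42 to 1.02). Snrpe (Entrez 20643, chromosome 1, 133603871 to 133610280), its neighbour in the ring, had 308 and 437 counts, 1.48-fold higher with a log2 ratio of 0.57 (0.36 to 0.79). For Snrpd2 (chromosome 7, 19149445 to 19152734) the counts were 489 and 605 and the log2 ratio 0.37 (0.20 to 0.55). The other 4 ring genes lay between 0.15 and 0.29, and the interval of Snrpd2 overlaps theirs.

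Among those 4, Snrpd3 had 345 counts in WT and 403 in TKO (log2 ratio 0.29, 0.079 to 0.50) and Snrpf had 450 and 511 (0.25, 0.063 to 0.43). Snrpd1 had 379 and 405 counts, with an interval of -0.044 to 0.37 that takes in 0. Snrpb, which encodes SmB and SmB′ and was the most abundant ring gene, had 1442 and 1528 counts and the lowest ring ratio, 0.15 (0.044 to 0.25). The assembled ring holds 1 copy of each protein, while the FPKM levels of its messages ran from 39.3 (Snrpg) to 120 (Snrpb) in WT and from 46.6 (Snrpd1) to 130 (Snrpb) in TKO.

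Snrpn had the lowest level of its family and the only ratio below 0 in it, with an interval that takes in 0. It encodes SmN, a relative of SmB/B′ made mainly in neurons, from an imprinted locus. Its counts were 79 in WT and 65 in TKO, the lowest FPKM of all 54 genes in both, with a log2 ratio of -0.22 (-0.71 to 0.28). Its annotated span overlaps Snurf (3 and 1 counts), Snhg14 (1 and 0) and the pseudogene Gm7367 (495 and 418), and its own deposited counts were not whole numbers, so its share of reads is uncertain.

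The snRNP-specific proteins of the family lay in a narrow band. The U1 proteins U1-C and U1-A, encoded by Snrpc and Snrpa, act at the 5′ splice site. Snrpc had 569 counts in WT and 661 in TKO (log2 ratio 0.28, 0.12 to 0.45), and Snrpa had 528 and 572 (0.18, 0.0078 to 0.35). The U2 proteins U2-B″ and U2-A′ bind a stem of U2 RNA as a pair, and are encoded by Snrpb2, with 672 and 751 counts (0.23, 0.074 to 0.38), and Snrpa1, with 269 and 292 (0.18, -0.060 to 0.43).

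**Figure D2:**
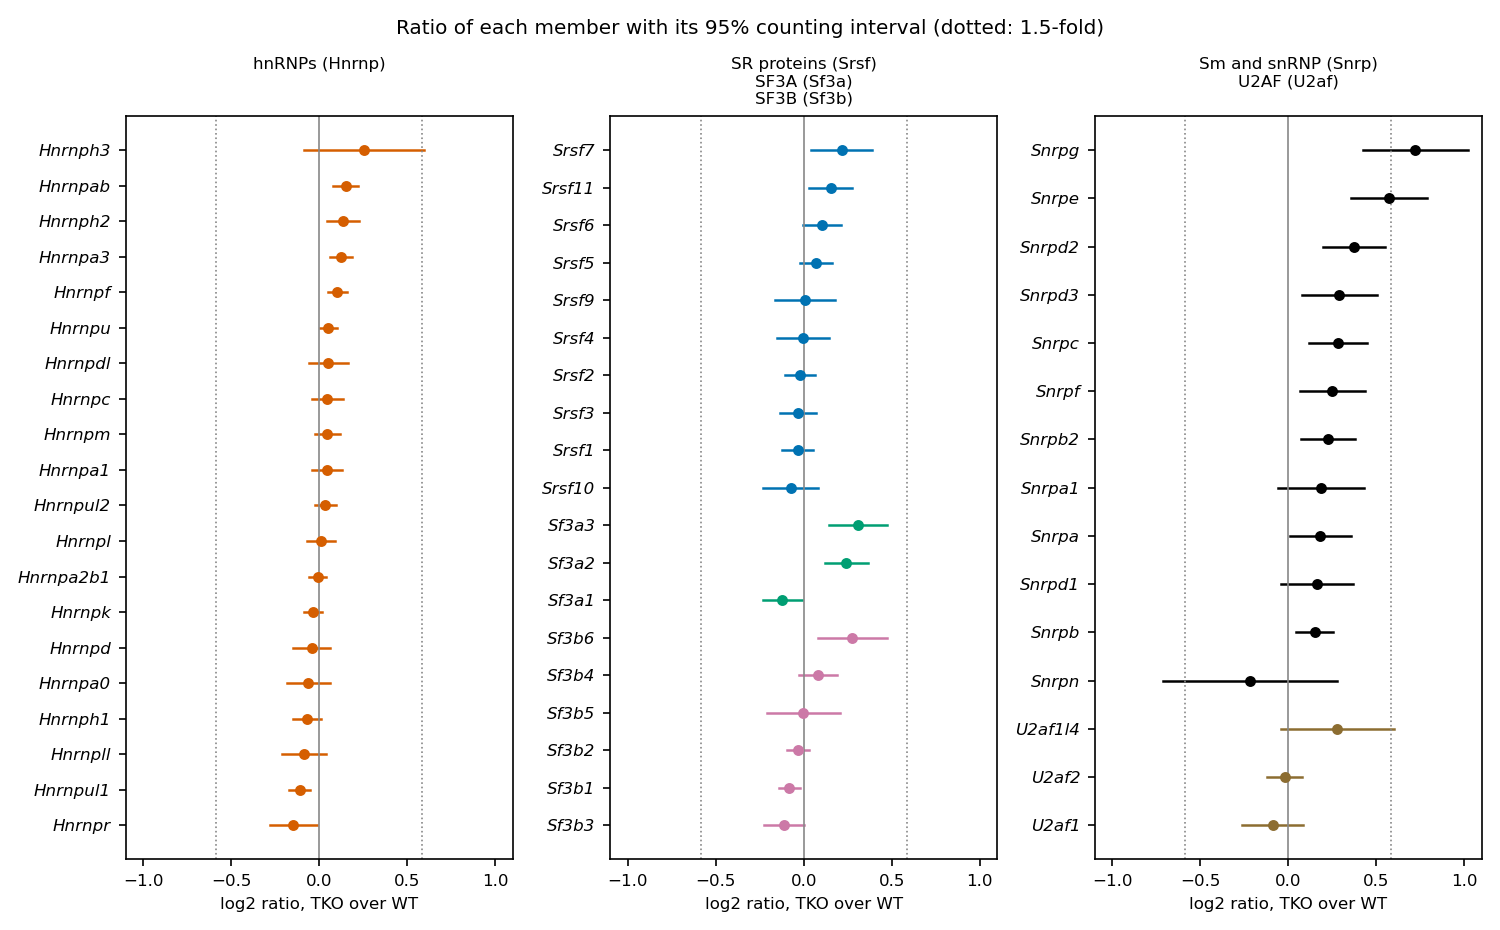
Log2 ratio of TKO over WT for each splicing gene (points), with its 95% counting interval (bars), by family. Dotted lines mark 1.5-fold. Only Snrpg has its point beyond the dotted line with an interval above 0 (0.42 to 1.02); among the hnRNP and SR genes every point is between -0.15 and 0.25.

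Length goes with the ratio in these libraries, and the Snrp genes are short. Across the 11525 genes past the minimum, Spearman's correlation of the log2 ratio with the deposited gene length was -0.45, and across the 54 splicing genes it was -0.63 (Pearson's, on log2 length, -0.31 and -0.70). These describe genes that share 1 pair of libraries. Genes under 1000 bases had a median log2 ratio of 0.23 over 796 genes, and genes of 5000 bases or more had -0.27 over 1950. Of the 12 Snrp genes, 7 are under 1000 bases, and the family's median length is 853 bases against 2859 for all genes. What makes the ratio depend on length was not tested.

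Set beside other genes of like length, most Snrp genes were where such genes lie. The 7 Snrp genes under 1000 bases had a median log2 ratio of 0.29, with 6 intervals wholly above 0, where 47.4% of all genes of that length had one. Snrpg was the 1 of these 7 called higher at 1.5-fold, against 8.42% of genes under 1000 bases, and 3 were called at a log2 ratio of 0.32, against 26% of them. With the lowess trend of the ratio on length removed, the median over the 12 genes went from 0.24 to 0.037. Snrpg then had a log2 ratio of 0.41 (0.12 to 0.71) and Snrpe 0.29 (0.081 to 0.51), the 2 genes of the family whose intervals still lay above 0. Both are among the less counted members, and Snrpg, at 393 bases, is the shortest of the 54. With the trend removed, an interval above 0 was also found for 119 of the 796 genes under 1000 bases. Over all genes past the minimum it was found for 2200 of 11525, so 2 of 12 is near the share of all genes.

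The longer splicing genes were less low than other long genes. The 5 of 5000 bases or more, Srsf1, Hnrnpul2, Hnrnpd, Hnrnpr and Sf3b1, had log2 ratios from -0.15 to 0.035 with a median of -0.043, while the median of all genes of that length was -0.27. With the trend removed their median was 0.18. In the middle classes the medians of splicing genes and of all genes were 0.17 and 0.15 from 1000 to under 2000 bases, 0.0030 and 0.054 from there to under 3000, and -0.034 and -0.060 from there to under 5000.

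**Figure D3:**
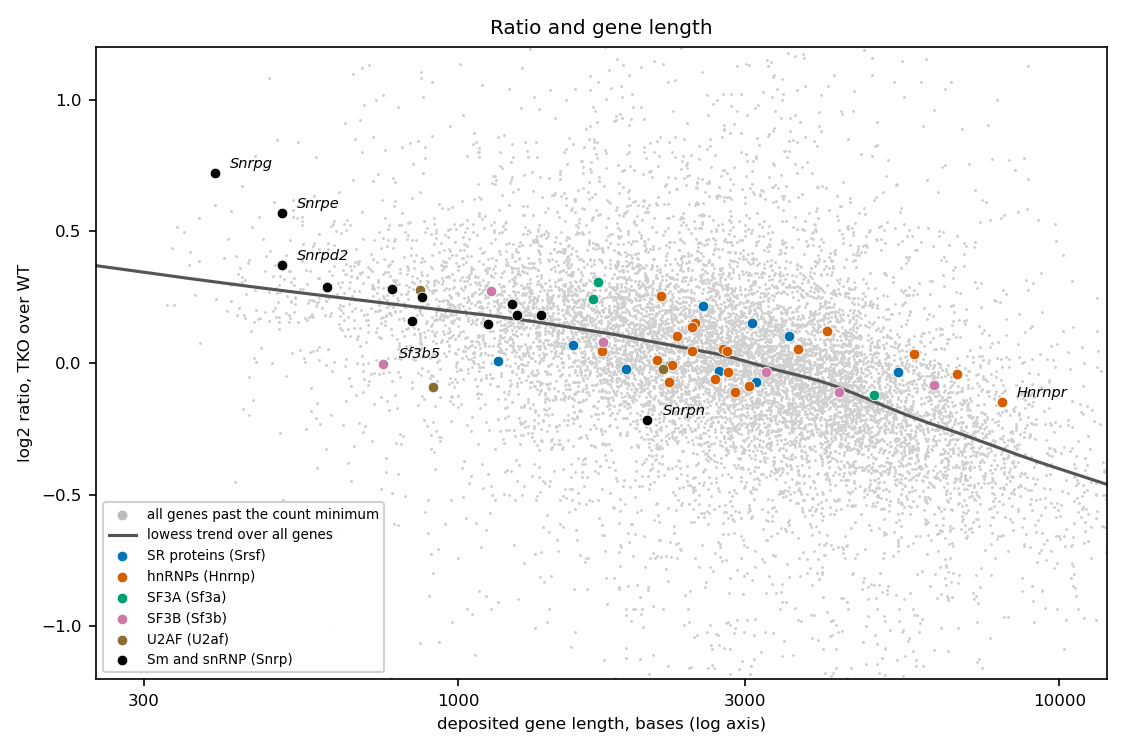
Log2 ratio of TKO over WT against deposited gene length (log axis) for all genes past the count minimum (grey; 463 lie outside the axes) and the 54 splicing genes (coloured by family), with the lowess trend over all genes (line). Of the 7 Snrp genes under 1000 bases, 6 sit above the trend, with Snrpg and Snrpe the highest, and Snrpd1 sits just below it. The hnRNP and SR genes lie between -0.15 and 0.25.

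The SR protein genes showed no common direction. Their 10 log2 ratios ran from -0.074 to 0.22 with a median of -6.1e-05, and 5 were above 0. Srsf5 was the most abundant, with 115 FPKM in WT and 118 in TKO (1930 and 1935 counts, log2 ratio 0.069, -0.022 to 0.16). Srsf2, which encodes SC35, followed with 107 and 102 FPKM (2202 and 2073 counts, -0.022, -0.11 to 0.066). Srsf1, the founding member of the family (also known as ASF/SF2), had 2149 and 2006 counts (-0.034, -0.12 to 0.055), and Srsf3, which also acts in mRNA export, had 1628 and 1522 (-0.032, -0.13 to 0.070). The intervals of these 4 genes all take in 0 and reach no further than 0.16 on either side.

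An interval above 0 was found for 2 of the 10 SR genes, a share near the 21.8% of all genes. Srsf7 (chromosome 17, 80200080 to 80207369), an export adaptor like Srsf3, had 521 counts in WT and 578 in TKO, the highest ratio of the family at 0.22 (0.042 to 0.39). Srsf11 had 1054 and 1119 (0.15, 0.029 to 0.27). The lowest was Srsf10, a heat-sensitive splicing repressor gene, with 707 and 642 counts (-0.074, -0.23 to 0.083). The other 3, Srsf6, Srsf9 and Srsf4, were between -0.0063 and 0.10.

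The hnRNP genes were the most abundant family and spread around 0. The 20 log2 ratios ran from -0.15 to 0.25 with a median of 0.040, and 19 of 20 were within 0.25 of 0. Hnrnpa2b1 (Entrez 53379, chromosome 6, 51460434 to 51470048), which encodes an RNA-binding protein that also sorts microRNAs and reads modified RNA, had the highest level of all 54 genes, with 7025 counts in WT and 6677 in TKO (log2 ratio -0.0078, -0.056 to 0.041). Hnrnpf, a binder of G-rich RNA, had 5731 and 5886 counts and a ratio of 0.10 (0.051 to 0.16). Hnrnpk, which binds C-rich RNA, had 6176 and 5764 (-0.034, -0.086 to 0.018), and Hnrnpu, a scaffold protein of the nucleus, 7732 and 7665 (0.053, 0.0072 to 0.099). At these counts the intervals are narrow, which fixes the ratio of the 2 libraries closely but says nothing of the spread between animals.

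Small offsets in both directions were found among other hnRNP genes. The intervals of Hnrnpab (3051 and 3238 counts, log2 ratio 0.15), Hnrnph2 (1966 and 2065, 0.14) and Hnrnpa3 (4037 and 4201, 0.12) lay above 0. Those of Hnrnpul1 (4575 and 4048, -0.11, -0.17 to -0.050) and Hnrnpr (995 and 858, -0.15, -0.28 to -0.015) lay below 0. Hnrnph3 had the highest ratio of the family, 0.25, on 136 and 155 counts with an interval that takes in 0 (-0.087 to 0.60).

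Ratios of close paralogs in this family were small, with signs that differed in several cases. Hnrnph1 and Hnrnph2, which encode near-identical proteins, had log2 ratios of -0.071 (-0.15 to 0.0081) and 0.14 (0.047 to 0.23). Hnrnpul1 and Hnrnpul2 had -0.11 and 0.035, and Hnrnpd and Hnrnpdl had -0.043 (-0.15 to 0.063) and 0.052 (-0.058 to 0.16), intervals that overlap and both take in 0. Hnrnpa1, Hnrnpa0 and Hnrnpa3, of the A/B group, had 0.045, -0.061 and 0.12. Counts that were not whole numbers, a sign of reads shared among gene models, were found for 11 of the 54 genes: 9 hnRNP genes (Hnrnpa1, Hnrnpa3, Hnrnpab, Hnrnpc, Hnrnpd, Hnrnph1, Hnrnph2, Hnrnph3 and Hnrnpu), Sf3b6 and Snrpn. Small differences between such paralogs are therefore uncertain. Among the 43 genes with whole counts the median log2 ratio was 0.047.

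Subunits of SF3A, a trimer of the U2 snRNP, went in different directions. Sf3a3 (chromosome 4, 124714861 to 124732423) had 555 counts in WT and 656 in TKO, the highest log2 ratio outside the Snrp family (0.31, 0.14 to 0.47). Sf3a2 had 1030 and 1164 counts (0.24, 0.12 to 0.36). Sf3a1, the largest subunit and the gene with the longest transcript of the 3, had 1390 and 1221 (-0.12, -0.23 to -0.0096). The deposited lengths are 1710, 1674 and 4916 bases, and with the length trend removed the 3 ratios were 0.19, 0.12 and 0.025.

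In SF3B, which grips the branch point adenosine, 4 of 6 genes lay below 0 and the median log2 ratio was -0.018. Sf3b1 (Entrez 81898, chromosome 1, 54985169 to 55027501), the large subunit often mutated in myelodysplastic syndromes, had 4562 counts in WT and 4119 in TKO (-0.082, -0.14 to -0.021). Sf3b2 was the most abundant, with 122 and 116 FPKM (4339 and 4051 counts, -0.034, -0.096 to 0.029), and Sf3b3 the lowest in ratio, with 1351 and 1196 counts (-0.11, -0.22 to 0.0030). Sf3b6, which encodes the subunit that touches the branch point, had 396 and 458 (0.28, 0.078 to 0.47). Sf3b4 and Sf3b5 had 0.081 and -0.0021, both with intervals that take in 0. Sf3b5 is 750 bases long, and its ratio was 0.23 below the trend for genes of its length.

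Both subunits of the U2AF heterodimer were close to 0. U2af2, the large subunit that binds the polypyrimidine tract, had 1701 counts in WT and 1601 in TKO (-0.022, -0.12 to 0.077), and U2af1, the small subunit that reads the AG, had 577 and 518 (-0.090, -0.26 to 0.084). U2af1 (chromosome 17, 31647081 to 31659148) was also 0.30 below the length trend (interval -0.47 to -0.12), next to Snrpn the farthest below it of the 54 genes. U2af1l4, which encodes a small-subunit relative, had 151 and 175 counts (0.28, -0.044 to 0.60). It overlaps the annotated span of Psenen, with 449 and 470 counts, by 288 bases, and the strand setting of the counting is not stated. Other overlaps with a counted neighbour include Srsf4 with Gm12992 (580 and 523 counts), Srsf2 with Mfsd11 (1182 and 1229) and Sf3b3 with Cog4 (567 and 558). Reads of these pairs may be shared, although the deposited counts of U2af1l4, Srsf4, Srsf2 and Sf3b3 were whole numbers. Hnrnph3, Hnrnpab and Hnrnpu also overlap a counted gene, and their counts were not whole.

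The other genes of the pathway, in 8 lists, had a like median, and 64 of 158 lay below 0, against 21 of the 54 genes. Over all genes past the minimum 5693 of 11525 did. Of 158 listed genes all were matched and passed the count minimum. None was called higher and 1 lower at 2-fold, where 2.43% and 2.3% of all genes were, and 0 higher and 3 lower at 1.5-fold, against 5.13% and 5.54%. The median log2 ratio was 0.055, and 73.4% lay within 0.25 of 0, against 57.9% of all genes. For 42 genes the interval lay above 0 and for 33 below, where 21.8% and 22.7% of all genes did. Among the 54 genes 19 lay above and 4 below. The listed genes have a median length of 3057 bases, against 2248 for the 54. With the length trend removed, the intervals of 33 of the 158 listed genes lay above 0 and 20 below, against 13 and 7 of the 54. Over all 11525 genes past the minimum, 2200 lay above and 2031 below. Summed over the lists, the counts came to 183823 (WT) and 170946 (TKO), with a log2 ratio of -0.039 (-0.049 to -0.030). The sum over the 54 genes had 0.034 (0.021 to 0.047), near the 0.036 of the sum over all genes past the minimum. The lower genes were Khdrbs3 (20 and 7 counts, log2 ratio -1.45, -2.93 to -0.15), which encodes the STAR-family regulator SLM2, Rbfox2 (88 and 52 counts, -0.69, -1.22 to -0.18), a regulator that binds GCAUG, and Smg1, the kinase of nonsense-mediated decay (2637 and 1676 counts, -0.59, -0.68 to -0.50). Khdrbs3 is the gene past 2-fold, on counts under the stricter minimum of 100. Smg1 has the longest deposited length of the listed genes, 15553 bases, and was at -0.042 with the length trend removed.

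The snRNP and LSm genes outside the named families spread to both sides of 0. The 10 LSm genes encode Sm-like proteins of the U6 ring, the cytoplasmic decay ring and, for Lsm10 and Lsm11, the U7 snRNP of histone mRNA processing. They have a median length of 905 bases and had a median log2 ratio of 0.20, with 8 above 0 and Lsm10 the highest at 0.50 (90 and 122 counts). In the list of other snRNP proteins and helicases the median was 0.11 over 22 genes. Snrnp27 (206 and 272 counts, 836 bases) was highest at 0.47 and the helicase gene Snrnp200 (2987 and 2169 counts, 6740 bases) lowest at -0.40, and Prpf8, the protein at the catalytic centre, was at -0.38. Snrnp70, the U1-70K gene and the most abundant of the list, had 2755 and 2780 counts and a log2 ratio of 0.079.

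Regulators of SR proteins and of splice choice lay on both sides of 0. The SR-related and SR kinase list had a median of -0.058 over 23 genes, from Srrm2 at -0.51 (5092 and 3427 counts, 8613 bases) to Luc7l3 at 0.30, with Srrm1, the most abundant, at -0.018. The list of other splicing regulators had a median of 0.053 over 37 genes, with Taf15 the highest at 0.37 and Rbm3, a cold-inducible RNA-binding protein and the most abundant, at 0.14. The PRP19 complex and step factors had 0.092 over 24, from Dhx38 at -0.30 to Syf2 at 0.35, with Cwc15 the most abundant at 0.34. For other 3′ splice site factors the median was 0.036 over 15, from Dhx9 at -0.30 to Rbm17 at 0.29, with Ddx39b the most abundant at 0.16. The exon junction and decay list had 0.012 over 14, with Magohb highest at 0.70 on 27 and 42 counts (interval -0.029 to 1.46) and Eif4a3 most abundant at 0.058. The snRNP assembly list had 0.039 over 13, from Gemin2 at -0.18 to Gemin7 at 0.51, with Strap the most abundant at 0.22.

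**Figure D4:**
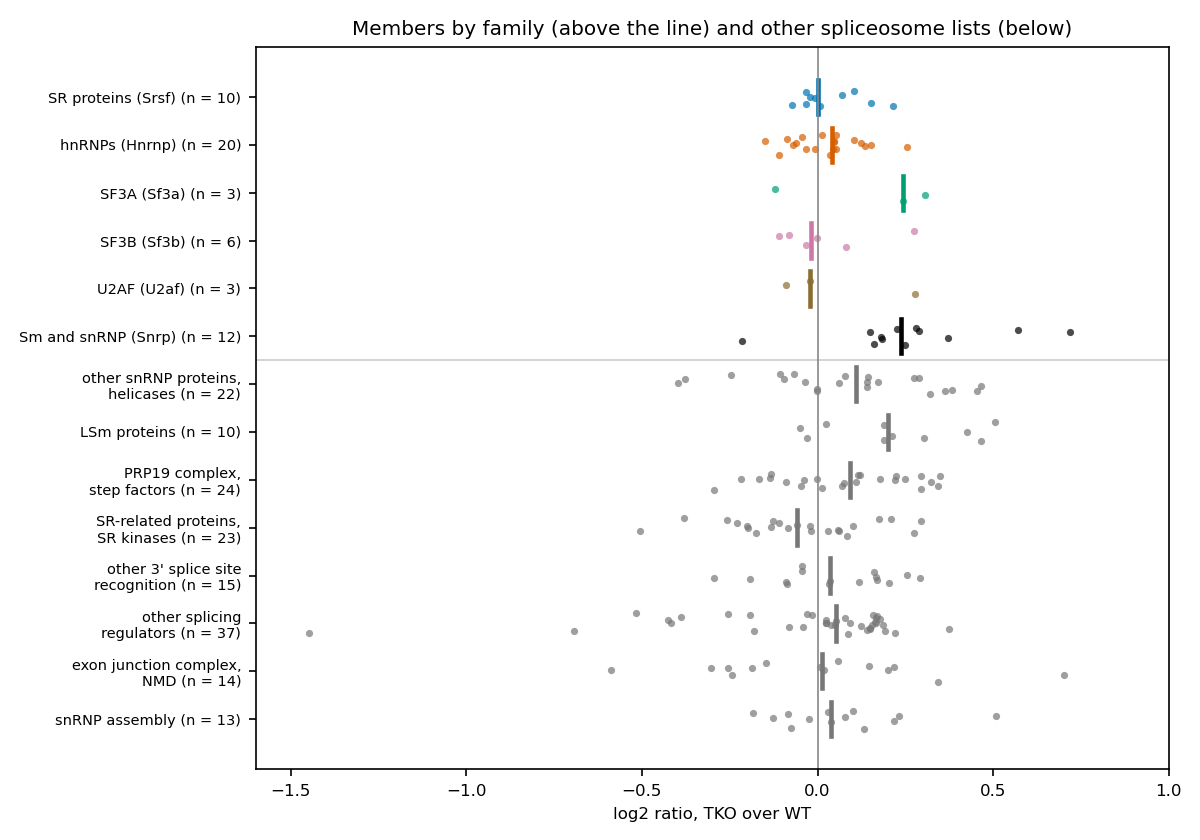
Log2 ratio of TKO over WT for the 54 splicing genes by family (upper rows) and for 158 other spliceosome genes in 8 lists (lower rows). Each point is 1 gene and the vertical bar is the median of the row. The Snrp and LSm rows have medians of 0.24 and 0.20, and the leftmost point is Khdrbs3 at -1.45.

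The microRNAs of the targeted clusters fall into 4 seed families, and matches to them were sought in the 3′ UTR of each splicing gene, taking the longest one annotated. The mature sequences of 7 of the 13 microRNAs, from RefSeq on GRCm38.p6, show what is shared. Capitals mark the seed, bases 2 to 8.
miR-17-5p: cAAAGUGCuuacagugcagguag
miR-106b-5p: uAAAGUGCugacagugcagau
miR-18a-5p: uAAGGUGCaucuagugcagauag
miR-19b-3p: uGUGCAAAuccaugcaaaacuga
miR-25-3p: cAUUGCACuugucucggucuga
miR-92a-3p: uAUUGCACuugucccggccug
miR-363-3p: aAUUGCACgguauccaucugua

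Matches to the full seed were less frequent in these genes than in all genes. At least 1 match to any of the 4 seeds was found in 13 of 54 (24.1%), against 35.9% of 11058 genes past the count minimum with an annotated 3′ UTR. By family, matches were found in 4 genes for miR-17 (7.41%, against 15.4% of all genes), 4 for miR-18 (7.41%, 10.4%), 9 for miR-19 (16.7%, 14%) and 1 for miR-25/92 (1.85%, 7.92%). The splicing genes have shorter 3′ UTRs, with a median of 1021 bases against 1401. No SR gene other than Srsf6 and no U2af gene held a match.

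Sites are shown for the genes with the most abundant transcript (Hnrnpa2b1), with 4 matches to 3 families (Sf3b1), with paired sites followed by an A, which makes them 8mers (Hnrnpul2), and for the only SR gene (Srsf6). The bases are from GENCODE M21 transcripts on GRCm38, as DNA letters in the sense of the message, and capitals mark the match.
Hnrnpa2b1, miR-17 family, chr6:51461302-51461330, minus strand: tcatttaagaaGCACTTTtaagaaaaggg
Hnrnpa2b1, miR-19 family, chr6:51461013-51461041, minus strand: gctagactagtTTTGCACagaactataca
Sf3b1, miR-17 family, chr1:54985823-54985851, minus strand: gccatacctaaGCACTTTtaaatgttttg
Sf3b1, miR-17 family, chr1:54985393-54985421, minus strand: ccttttctttaGCACTTTgatgtttctta
Sf3b1, miR-18 family, chr1:54986719-54986747, minus strand: gtacttacataGCACCTTtcaccttgatt
Sf3b1, miR-25/92 family, chr1:54986378-54986406, minus strand: accagggtgctGTGCAATggaagatgcag
Hnrnpul2, miR-19 family, chr19:8831795-8831823, plus strand: caaaaaaaccgTTTGCACagaaagcagca
Hnrnpul2, miR-19 family, chr19:8833944-8833972, plus strand: ctgtaaatgttTTTGCACaacctgtaaag
Srsf6, miR-19 family, chr2:162934764-162934792, plus strand: cctcgacgttcTTTGCACactataacaga

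Whether genes with a match had the higher ratio depended on the length trend. The 13 had a median log2 ratio of 0.035, from -0.15 (Hnrnpr) to 0.29 (Snrpd3), and the 41 without had 0.081. The genes shown above had -0.0078 (Hnrnpa2b1), -0.082 (Sf3b1), 0.035 (Hnrnpul2) and 0.10 (Srsf6, 1419 and 1456 counts, -0.0038 to 0.21). Genes with a match are longer, with a median of 3547 bases against 1903, and with the length trend removed the order turned, with medians of 0.041 with a match and -0.018 without. Over all genes past the minimum the medians with and without a match were -0.054 and 0.036, or 0.0045 and -0.0028 with the trend removed.

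Matches depend on the 3′ UTR model. Of the 24 sites, 6 lie outside the RefSeq gene span, 4 of the 5 in Hnrnpr and both in Snrpd3, whose longest GENCODE 3′ UTRs (19419 and 2059 bases) are longer than the deposited lengths of 8011 and 604 bases. The same holds for Hnrnpu (5011 and 3670 bases), whose site lies inside the span, and for some genes without a match, such as Snrpg (545 and 393 bases). With the 6 sites outside the span left out, 12 genes held a match. Their median log2 ratio was 0.014, against 0.10 for the other 42. A match is a description of the annotated sequence, and binding was not measured.

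Each of 4 short motifs was found in a larger share of the splicing gene promoters than of all promoters. The first listed promoter in the RefSeq table, 250 bases before the start on GRCm38.p6, was found for 47 of the 54 genes. The letters CCGGAA, the core bound by ETS factors, occurred on either strand in 22 of 47 (46.8%), against 23.9% of 9257 promoters of genes past the count minimum. They were found in 6 of 10 Srsf, 5 of 10 Snrp and 5 of 18 Hnrnp promoters. CCAAT, the core bound by NF-Y, was found in 46.8% against 37.1%. By family it was in 12 of 18 Hnrnp, 4 of 10 Snrp and 3 of 10 Srsf promoters. GGGCGG, a GC box, was in 68.1% against 59.7%, with 9 of 10 Srsf, 13 of 18 Hnrnp and 5 of 10 Snrp promoters. TATAAA was in 5 of 47 (10.6%) against 6.07%. The splicing gene promoters also had a higher median ratio of observed to expected CG pairs, 0.905 against 0.744. CCGGAA and GGGCGG each contain CG, and the part of this in their shares was not tested. All 4 motifs were sought on both strands, and none of them contains another. The stretches just before the start of the 2 genes with the highest ratios, Snrpg and Snrpe, are given as examples, with capitals for CCAAT or CCGGAA, here on the reverse strand as ATTGG and TTCCGG.
Snrpg, chr6:86371420-86371539, plus strand: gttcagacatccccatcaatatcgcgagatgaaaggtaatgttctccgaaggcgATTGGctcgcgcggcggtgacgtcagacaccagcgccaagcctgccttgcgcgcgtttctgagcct
Snrpe, chr1:133610281-133610400, minus strand: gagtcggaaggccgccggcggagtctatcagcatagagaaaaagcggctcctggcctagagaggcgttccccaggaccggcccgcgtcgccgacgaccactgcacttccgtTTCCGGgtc

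In the whole 250 bases both genes hold CCGGAA, which for Snrpg lies outside the stretch shown. The motif counts say nothing of which factors act at these genes in macrophages.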

How the data were processed

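Counts per gene were compared between 1 WT and 1 TKO library. Per the submitters' processing notes, the tools were RSEM 1.2.12, Bowtie2 2.2.5 and HISAT2 2.0.4, on mm10. Which tool did what, and the gene annotation, are not stated there. The values the authors deposited as expression were taken to be estimated counts per gene, since 21.3% of WT and 21.1% of TKO values are not whole. FPKM columns, named so per the file headers, give 0.01 for each gene at 0 counts. Gene lengths are as deposited. The authors' log2 ratio equals that of the FPKM columns. The authors' p-value comes from an unnamed test, and the authors' FDR was treated as a score, since 713 values exceed 1.

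Expected counts were rounded and scaled with TMM factors (1.01 for WT, 0.988 for TKO; edgeR 4.0.16, R 4.3.3). Intervals are exact conditional binomial (Clopper-Pearson) at 95%. They measure counting error alone, since PCR copies are not separate molecules, and no test between genotypes was possible or run. The interval, the size rule and trend removal were tried on simulated counts that held counting error alone. Such counts cannot show how they do with PCR copies or spread between animals. The simulated trend was a straight line on log2 length, fitted over genes with at least 100 counts. The lowess trend (span 0.3, statsmodels 0.14.6) was fitted over genes with at least 20 counts in 1 library. The genes and lists were chosen with earlier results of these data known. Any of the 54 genes could be named; of other lists, the most abundant, highest and lowest gene and those past the 2-fold rule; Prpf8 and Rbfox2 were added after their values were seen, as was the Sm ring as a subset. Alternatives were library totals, DESeq2 1.42.0 size factors, log2 of FPKM plus 1, other count minimums and thresholds, a 99% interval and removal of the length trend.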

Additional observations from a re-analysis of the deposited data

How the results depend on the processing

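The median log2 ratio of the 54 genes stayed small under each alternative: 0.030 with DESeq2 size factors, 0.014 with library totals, 0.015 with log2 of FPKM plus 1, 0.052 with at least 100 counts, 0.050 with no count minimum and 0.024 with the length trend removed. The count of 1 gene higher at 1.5-fold became 0 with the length trend removed and 0 among genes of at least 1000 bases, and 3 at a threshold of log2 0.32; it was 1 under the other alternatives, and the count of lower genes was 0 throughout. The setting of at least 1000 bases and that of whole counts only were chosen after seeing the data. The median of the Srsf genes was -0.036 with library totals, -0.037 with log2 of FPKM plus 1 and -0.064 with the length trend removed. With that trend removed the U2af median was -0.095 and the Snrp median 0.037, and 13 of the 54 ratios changed sign, by at most 0.33. Scaling alone changed the sign of 2 (DESeq2) and 3 (library totals) ratios, all close to 0. Depth limits Snrpn, U2af1l4 and Hnrnph3 most. No paired analysis was possible because each genotype has 1 library and the labels give no replicate numbers.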
